A study of Mus musculus with 28 samples.

Results

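The genes of cholesterol synthesis and of its control by the sterol regulatory element-binding proteins (SREBPs) were followed through 28 RNA-seq libraries of transformed mouse fibroblasts. The set holds 31 genes, taken by symbol from a raw count table of 24079 genes: 8 enzymes of the mevalonate steps, 11 of the later sterol steps, 5 regulators, 4 genes of sterol transport and 3 fatty acid enzymes. All 31 passed the filter on low counts that left 15099 genes to test.

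All libraries come from mouse embryonic fibroblasts of strain C57BL/6x129Sv transformed with RAS and DNP53, so every control carries the same oncogenes. The labels do not give the age or sex of the embryos. Cyclin D1 carried the tag called Ctag in clones 12 and 14 and no tag in clones 18 and 25. Each tagged clone was sequenced once per treatment: untreated; leptomycin B, which blocks nuclear export through XPO1, at 20 ng/mL; SCR, the control siRNA; FLAG and HA, siRNAs aimed at the tag; and Qiagen, Nature and Life, siRNAs aimed at cyclin D1 itself. The untagged clones received SCR, FLAG or HA siRNA, 1 library each. Clone 18 carrying mCherry and puromycin resistance, or FLAG-mCherry-HA and puromycin resistance, gave 2 libraries with HA siRNA and 1 with FLAG siRNA per construct. Treatments ran overnight. Each line is 1 clone, and most groups hold 2 libraries, 1 per clone. The sample titles also give a number n, which differs between some libraries and whose meaning is not stated. Whether a library pools several cultures is therefore not known. In the fit over all libraries, p-values rest on how far differences between treatments vary from clone to clone, or between matched mCherry pairs. The labels do not say that a treatment was repeated in separate cultures of a clone, so part of this spread may be technical.

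Total counts ran from 26558256 to 81512769 per library. Of the 28, the SCR library of clone 12 had both the largest total and the smallest number of detected genes. Over 2% of counts fell on the ribosomal precursor Rn45s in 4 libraries, which were HA clone 12, Nature clone 14, Life clone 14 and the second mCherry library with HA siRNA. Ccnd1, which encodes cyclin D1, stood at 1128 and 1287 CPM (counts normalised to TMM-scaled library size) with SCR in clones 12 and 14 and between 50.1 and 329 CPM in the 10 libraries with a targeting siRNA. In untagged clones with FLAG or HA siRNA it stood between 1014 and 1293 CPM. Xpo1, the target of leptomycin B, rose with the drug from 701 and 635 CPM to 1238 and 1193 CPM (log2 change 0.87, SE 0.15; edgeR adjusted p = 0.00135). Of 12 fibroblast markers, 8 were at 1 CPM or more in every library, and their summed level ran from 7569 to 14945 CPM. Several were near 0 in clone 14: with SCR siRNA, Col1a1 stood at 0.543 CPM there against 609 in clone 12, Thy1 and Dcn were at 0.0494 and 0.0494 CPM, and the epithelial keratin Krt18 was at 1063 CPM against 111. Among adipocyte, hepatocyte, macrophage and endothelial markers, 4 of 6, 3 of 4, 2 of 4 and 3 of 4 were below 1 CPM in every library. Of 5 epithelial markers, Krt18 among them, 2 were below 1 CPM in every library and 1 was at 1 CPM or more in every library. The summed epithelial markers ran from 87.4 to 1958 CPM and the summed neural markers from 48.8 to 640.7 CPM. The part of these differences in the results below was not tested. In RNA from whole cultures, fewer cells of a kind and less RNA per cell cannot be told apart.

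Cells build cholesterol from acetyl-CoA. The mevalonate steps make isoprenoid units up to farnesyl diphosphate, from which squalene and then sterols are formed; the same farnesyl diphosphate feeds protein prenylation, dolichol and ubiquinone. SREBP-2 and SREBP-1, encoded by Srebf2 and Srebf1, are transcription factors held in the endoplasmic reticulum by SCAP and the INSIG proteins while sterols are plentiful. When sterols run low they move to the Golgi, are cut free and enter the nucleus. There they switch on genes of sterol synthesis with the help of the CCAAT-binding factor NF-Y.

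Promoter sequence was taken from RefSeq for build GRCm38.p6, the assembly of mm10, where 24 of the 31 genes have an entry. The 250 bases upstream of each start site were searched on both strands for CCAAT, the letters that NF-Y binds, and for TCACNCCAC, a common form of the sterol regulatory element. CCAAT was found in 21 of the 24 genes (87.5%) and in 15 of the 16 synthesis enzymes with an entry (93.8%), against 37.5% of all 27025 genes with an entry. A gene was counted if any of its start sites had a match. Per start site, CCAAT was found in 22 of 32 windows of the 24 genes (68.8%), against 33.8% of all 32851 windows. TCACNCCAC was found in 1 of the 24, Hmgcs1, against 1.22% of all genes. In Hmgcs1 the matches of the 2 motifs do not overlap. A match is a description only, and a window without one says only that these letters are not in it. The last 180 bases before the start site are shown for 6 genes that were lower with cyclin D1 siRNAs than with tag siRNAs, as examples that hold CCAAT at least once in this stretch. Capitals mark CCAAT (read as ATTGG from the other strand) and, in Hmgcs1, TCACCCCAC.
Hmgcs1, chr13:119690171-119690350, plus strand: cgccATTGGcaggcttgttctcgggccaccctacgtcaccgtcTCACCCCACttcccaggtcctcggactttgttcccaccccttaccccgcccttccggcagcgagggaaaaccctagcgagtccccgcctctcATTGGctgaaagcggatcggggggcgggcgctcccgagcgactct
Mvk, chr5:114444089-114444268, plus strand: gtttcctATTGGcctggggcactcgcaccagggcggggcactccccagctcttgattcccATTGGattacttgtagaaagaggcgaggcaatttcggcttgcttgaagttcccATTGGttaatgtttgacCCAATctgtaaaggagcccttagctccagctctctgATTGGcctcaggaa
Idi1, chr13:8885426-8885605, plus strand: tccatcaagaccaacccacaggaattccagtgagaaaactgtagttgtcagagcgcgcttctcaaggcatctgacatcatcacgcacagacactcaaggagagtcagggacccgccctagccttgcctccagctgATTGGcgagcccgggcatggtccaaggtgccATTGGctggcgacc
Msmo1, chr8:64733579-64733758, minus strand: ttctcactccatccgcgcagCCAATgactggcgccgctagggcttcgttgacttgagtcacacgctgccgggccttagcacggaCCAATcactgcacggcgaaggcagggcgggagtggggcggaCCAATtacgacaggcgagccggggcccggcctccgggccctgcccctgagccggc
Nsdhl, chrX:72918341-72918520, plus strand: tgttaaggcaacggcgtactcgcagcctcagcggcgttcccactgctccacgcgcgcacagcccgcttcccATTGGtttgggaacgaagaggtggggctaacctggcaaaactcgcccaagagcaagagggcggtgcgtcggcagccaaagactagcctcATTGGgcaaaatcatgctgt
Srebf2, chr15:82147089-82147268, plus strand: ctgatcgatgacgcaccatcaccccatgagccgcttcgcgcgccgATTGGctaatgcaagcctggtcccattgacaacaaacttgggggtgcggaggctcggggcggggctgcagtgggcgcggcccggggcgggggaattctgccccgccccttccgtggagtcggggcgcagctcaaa
The Mvk stretch holds CCAAT 5 times, on both strands, and the Srebf2 stretch holds it once.

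Levels between genes were compared per kilobase of annotated exon. Scd2, a stearoyl-CoA desaturase that makes monounsaturated fatty acids, had the highest median over the 28 libraries, 199 CPM per kb. The early enzymes Idi1 (isopentenyl diphosphate isomerase), Fdps (farnesyl diphosphate synthase) and Hmgcs1 (HMG-CoA synthase) followed with medians of 78.8, 66.4 and 63.4 CPM per kb. At the low end were the sterol reductase Tm7sf2 with 2.14 and the cholesterol exporter Abca1 with 0.937 CPM per kb. Exons of 12 of the 31 genes overlap those of another annotated gene, by up to 774 bases between Fdft1 and Ctsb on opposite strands and 532 bases between Tm7sf2 and Vps51 on the same strand. No source used here gives the strand setting of the counting. How reads in these overlaps were counted or set aside is therefore not known, and the levels of these genes are uncertain to that extent.

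**Figure D1:**
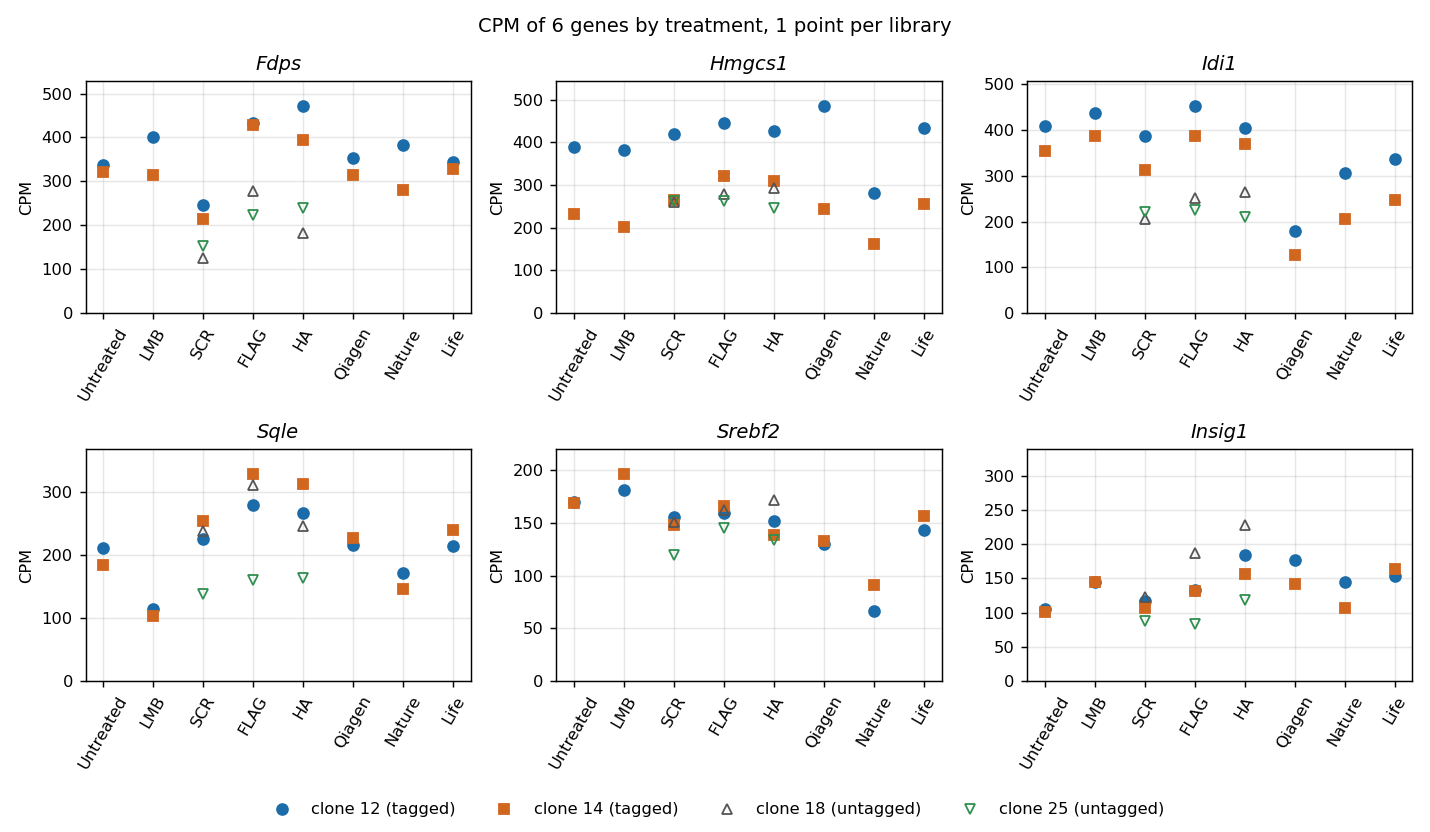
Each panel plots the CPM of 1 gene (vertical axis, from 0) against treatment (horizontal axis), with 1 point per library: filled circles clone 12, filled squares clone 14, open triangles the untagged clones 18 and 25. Fdps is lowest with SCR siRNA in all 4 clones, Idi1 is lowest with Qiagen siRNA, Srebf2 with Nature siRNA, and Sqle with leptomycin B (LMB). The 6 mCherry libraries are not drawn.

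Fdps, whose product stands at the branch point between sterols and prenyl groups, differed from SCR siRNA with every targeting siRNA. In clones 12 and 14 it stood at 245 and 215 CPM with SCR, 433 and 427 with FLAG and 472 and 393 with HA siRNA. With Qiagen siRNA it stood at 353 and 315 CPM, with Nature at 382 and 280.5 and with Life at 343 and 329. Both SCR libraries lie below all 10 libraries with a targeting siRNA. Against SCR it rose with FLAG siRNA (log2 change 0.91, SE 0.15; edgeR adjusted p = 0.00242) and with HA siRNA (log2 change 0.91, SE 0.15; edgeR adjusted p = 0.0013). The values with Qiagen (0.54, SE 0.15, edgeR adjusted p = 0.0402), Nature (0.52, SE 0.15, adjusted p = 0.0353) and Life siRNA (0.55, SE 0.15, adjusted p = 0.0266) passed as well. These 5 comparisons share the SCR libraries. With clone 12's SCR library left out, the calls with FLAG, Qiagen, Nature and Life were lost (adjusted p = 0.057, 0.251, 0.234 and 0.179), while the call with HA was kept without any single library. The call with FLAG was also lost without the FLAG library of clone 14 (0.068), that with Nature without the SCR library of clone 14 (0.0922) or the Nature library of clone 12 (0.406), and those with Qiagen and Life without any 1 of their 4 libraries (0.0684 to 0.251).

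In untreated cells Fdps stood at 338 and 321 CPM, above both SCR libraries, and SCR siRNA was lower than no treatment (log2 change -0.52, SE 0.15; edgeR adjusted p = 0.0459). The 5 targeting siRNAs together did not pass the test against no treatment (Fdps 0.16, SE 0.11, adjusted p = 0.303). The call for SCR against no treatment was lost without any 1 of its 4 libraries (adjusted p 0.096 to 0.296), and transfection and SCR siRNA cannot be told apart in it. In untagged clones, where the tag siRNAs have no cyclin D1 tag to act on, Fdps stood at 125 and 153 CPM with SCR in clones 18 and 25, 279 and 224 with FLAG and 183 and 239 with HA siRNA. All 4 tag siRNA libraries lie above both SCR libraries, and the rise passed the test (log2 change 0.73, SE 0.13; edgeR adjusted p = 0.00319) but not when SCR of clone 18 was left out (adjusted p = 0.429). The rise in tagged clones minus the rise in untagged clones was 0.17 (SE 0.18, adjusted p = 1), so a difference between tagged and untagged clones was not detectable.

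Tag siRNAs were set against SCR to ask how the pathway moves when the tag transcript is targeted. In tagged clones 2 of the 31 genes were called, both higher, where 3.86% of all 15099 genes were called in either direction: Fdps and the phosphomevalonate kinase Pmvk. The count was 14 with only these 6 libraries in the fit and 6 with DESeq2. The share of all genes called in those fits is not given here, so these counts cannot be set against it. Pmvk stood at 35.0 and 32.9 CPM with SCR, 51.5 and 48.4 with FLAG and 59.3 and 51.0 with HA siRNA, without overlap (log2 change 0.63, SE 0.16; edgeR adjusted p = 0.0354). The call was lost without any 1 of these 6 libraries, with adjusted p from 0.0771 to 0.458, the highest when SCR of clone 12 was left out. That of Fdps (log2 change 0.91, SE 0.13; edgeR adjusted p = 0.000554) was kept without any single library. Of the 19 synthesis enzymes 17 had positive values in both clones, and their median was 0.332 against 0.0257 over all tested genes. Of all tested genes 52.7% had a positive log2 change in the fit, and the share positive in both clones was not counted. Among those that did not pass were the decarboxylase Mvd (0.54), the demethylase Cyp51 (0.47), the C4-methylsterol oxidase Msmo1 (0.44) and the squalene epoxidase Sqle (0.31), with adjusted p from 0.0611 to 0.153. In untagged clones 1 gene, Fdps, was called, where 2.68% of all genes were. There 11 of the 19 enzymes were positive in both clones, with a median of 0.124 against -0.00608 over all genes, of which 48.9% had a positive log2 change. Testing tagged against untagged clones for a difference in this response called 0 of the 31 genes in edgeR, 0 in DESeq2, 0 at an unadjusted p under 0.05 and 0.00662% of all genes, which is 1 gene.

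Cyclin D1 siRNAs and tag siRNAs were then set against each other, a comparison that uses no SCR library and in which Ccnd1 is below its SCR level in both arms, though not equally: it was lower with cyclin D1 siRNAs than with tag siRNAs (log2 change -0.82, SE 0.15; edgeR adjusted p = 0.00171). With cyclin D1 siRNAs 13 of the 31 genes were lower and 0 higher, where 6.99% of all genes were called, 3.9% lower and 3.09% higher. They were 12 of the 19 synthesis enzymes and Srebf2. The median over the 31 genes was -0.277, and -0.441 over the 19 enzymes, against -0.000176 over all tested genes. Against SCR, the median of the 19 enzymes was -0.01 with cyclin D1 siRNAs, with 9 positive and 10 negative and 0 of the 11 sterol enzymes called, and 0.33 with tag siRNAs. The 12 enzymes lie along the route from Hmgcs1 to Dhcr7, which makes cholesterol from 7-dehydrocholesterol. None of the other 4 regulators, the 4 transport genes or the 3 fatty acid enzymes passed in edgeR, nor did any of them at an unadjusted p under 0.05: the values were -0.03 for Insig1, 0.05 for Srebf1, 0.01 for Stard4, -0.18 for Fasn and 0.04 for Scd2.

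Among the mevalonate enzymes, Idi1 differed most from the tag siRNAs. It stood at 453 and 386 CPM with FLAG and 405 and 369 with HA siRNA, against 179 and 127 with Qiagen, 306 and 206 with Nature and 337 and 248 with Life (log2 change -0.86, SE 0.09; edgeR adjusted p = 7.93e-06). All 6 cyclin D1 siRNA libraries lie below all 4 tag siRNA libraries. Hmgcs1, which condenses acetyl-CoA with acetoacetyl-CoA, stood at 446 and 321 CPM with FLAG and 426 and 309 with HA siRNA, against 486 and 244 with Qiagen, 282 and 162 with Nature and 434 and 257 with Life. Its clone 12 library with Qiagen siRNA is the highest of the 10, so the groups overlap within that clone (log2 change -0.35, SE 0.09; edgeR adjusted p = 0.0179; -0.16 in clone 12 and -0.54 in clone 14). Mevalonate kinase Mvk (-0.52), Pmvk (-0.58), Mvd (-0.51) and Fdps (-0.37) were lower as well, with adjusted p of 0.00414 to 0.02. Acat2, which makes acetoacetyl-CoA, and Ggps1, which makes geranylgeranyl diphosphate, did not pass (-0.28 and 0.23).

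Among the sterol enzymes, Cyp51, Sqle and the squalene synthase Fdft1 differed most from the tag siRNAs. Cyp51, the lanosterol demethylase, stood at 295 and 246 CPM with FLAG and 296 and 258 with HA siRNA, against 206 and 132 with Qiagen, 239 and 127 with Nature and 229.7 and 177 with Life (log2 change -0.61, SE 0.10; edgeR adjusted p = 0.000789). Sqle stood at 279 and 329 CPM with FLAG and 267 and 313 with HA, against 215 and 226 with Qiagen, 171 and 146 with Nature and 215 and 239.6 with Life (log2 change -0.57, SE 0.09; edgeR adjusted p = 0.000396). Fdft1 stood at 150.4 and 207 CPM with FLAG and 150.4 and 193 with HA, against 106 and 117 with Qiagen, 121 and 106 with Nature and 128 and 151 with Life (log2 change -0.53, SE 0.09; edgeR adjusted p = 0.000983). In each clone the cyclin D1 siRNA libraries of these 3 genes lie below its tag siRNA libraries. Msmo1 (-0.44), the sterol dehydrogenase Nsdhl (-0.48) and Dhcr7 (-0.45) were lower with adjusted p of 0.00513 to 0.0197. Lss, Tm7sf2, Hsd17b7, Ebp and Sc5d did not pass, with values from -0.29 to 0.00.

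Srebf2, the only called regulator here, stood at 159.9 and 166 CPM with FLAG and 152 and 138 with HA siRNA, against 129.9 and 133 with Qiagen, 66.5 and 91.0 with Nature and 143 and 157 with Life (log2 change -0.41, SE 0.09; edgeR adjusted p = 0.006). The Nature libraries are the lowest, and the Life library of clone 14 lies above both HA libraries. The share of all genes called in fits with libraries left out is not given, so such counts here and below cannot be set against it. Over the libraries left out in turn the count of called genes ran from 8 to 14, with 8 without the HA library of clone 12. It was 5 without the libraries with over 2% Rn45s, which hold 3 of the 10 libraries compared. Idi1, Fdft1, Sqle and Cyp51 kept their calls in each of these fits; Pmvk, Msmo1 and Nsdhl lost theirs only without the Rn45s libraries (adjusted p = 0.0768, 0.125 and 0.13), and Srebf2 only without the HA library of clone 12 (0.0545). Hmgcs1, Mvk, Mvd, Fdps and Dhcr7 lost theirs without the Rn45s libraries and without 2 to 6 single libraries (0.0516 to 0.331).

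**Figure D2:**
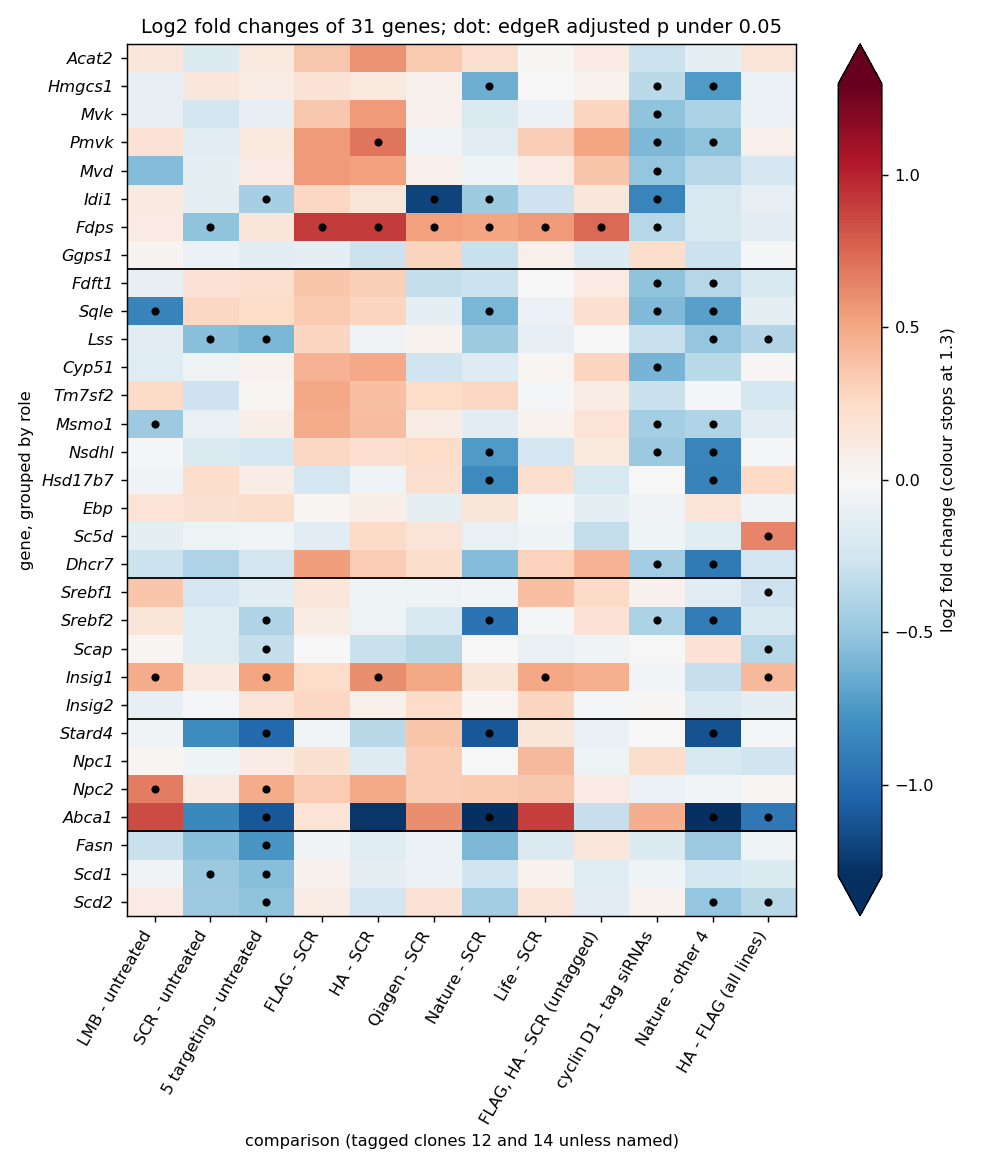
Each row is 1 of the 31 genes, grouped by black lines into mevalonate enzymes, sterol enzymes, regulators, transport genes and fatty acid enzymes; each column is 1 comparison, in tagged clones unless named. Colour gives the log2 fold change and a dot an edgeR adjusted p under 0.05. The column of cyclin D1 against tag siRNAs holds 13 dots, all blue, and that of Nature against the other 4 siRNAs 13 as well, while dots sit on Fdps in each of the 5 columns of a single siRNA against SCR. Columns that name SCR, or untreated cells, share those control libraries. The columns of cyclin D1 against tag siRNAs and of Nature against the other 4 siRNAs use the same targeting siRNA libraries.

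Single siRNAs were then compared with the other 4 targeting siRNAs and with SCR. The other 4 include FLAG and HA, so the tag siRNA libraries of the comparison above enter again. The part of each siRNA in that comparison was not tested. With Nature siRNA 13 of the 31 genes were lower than with the other 4 targeting siRNAs and 0 higher, where 9.93% of all genes were called, 5.5% lower and 4.44% higher. They were 9 of the 19 enzymes, Srebf2, the sterol transport genes Stard4 and Abca1, and Scd2. The median over the 31 genes was -0.367, against 0.0197 over all genes. Of the called enzymes, Pmvk stood in clone 12 at 40.3 CPM with Nature, 34.3 with Qiagen and 41.3 with Life siRNA. Fdft1 stood there at 121, 106 and 128 CPM and Msmo1 at 258, 259 and 244 CPM. In clone 14 Nature gave the lowest level of the cyclin D1 siRNAs for each of these genes. The count ran from 10 to 13 when single libraries were left out. Without the Rn45s libraries, which hold the Nature library of clone 14, the calls of Pmvk, Fdft1, Msmo1, Abca1 and Scd2 were lost (adjusted p 0.0562 to 0.613), and with 2 other genes then called the count was 10. Ccnd1 was at 63.8 and 50.1 CPM with Nature siRNA and at 73.7 and 52.5 CPM with Life siRNA, the lowest levels of the 5; the part of this in the result was not tested.

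Srebf2 stood at 66.5 and 91.0 CPM with Nature siRNA, below all 8 libraries of the other targeting siRNAs, which ran from 129.9 to 166 CPM (log2 change -0.91, SE 0.11; edgeR adjusted p = 3.71e-05). Nsdhl, a dehydrogenase that acts in removing the C4 methyl groups of sterols, stood at 29.4 and 38.1 CPM in clones 12 and 14, where the other 4 siRNAs gave 42.3 to 58.3 in clone 12 and 54.2 to 86.3 in clone 14 (log2 change -0.86, SE 0.13; edgeR adjusted p = 0.000243). Hsd17b7, the 3-ketosterol reductase of the same demethylation, stood at 26.6 and 25.3 CPM against 36.5 to 66.7 with the others (log2 change -0.86, SE 0.15; edgeR adjusted p = 0.00105). In each clone the Nature library is the lowest of the 5 for these 3 genes. Dhcr7 stood at 11.1 and 21.3 CPM (log2 change -0.92, SE 0.15; edgeR adjusted p = 0.000473), with the others at 17.0 to 24.4 in clone 12 and 35.9 to 44.9 in clone 14. Hmgcs1 (-0.73, adjusted p = 0.000299) and Sqle (-0.70, adjusted p = 0.000463) were lower as well. These 6 calls were kept without any single library. Pmvk, Fdft1, Lss and Msmo1 were called at -0.37 to -0.52; without the Nature library of clone 14 their adjusted p was 0.427, 0.418, 0.0632 and 0.534, and the log2 change was -0.19 for Pmvk, -0.18 for Fdft1 and -0.13 for Msmo1. The call of Lss was also lost without the Nature library of clone 12 (0.255), that of Pmvk without the FLAG or HA library of clone 12 (0.05 and 0.0524), that of Msmo1 without any 1 of 7 further libraries (0.0516 to 0.0654) and that of Fdft1 without any 1 of 5 (0.0631 to 0.0813).

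Stard4, a soluble carrier of cholesterol between membranes, stood at 29.9 and 54.8 CPM with Nature siRNA (log2 change -1.13, SE 0.26; edgeR adjusted p = 0.00906), and at 66.8 to 147 CPM with the others. Abca1, at 1.49 and 1.77 CPM, was the lowest in clone 12 (log2 change -1.84, SE 0.40; edgeR adjusted p = 0.00626), but in clone 14 the HA library stood at 1.73 CPM. Scd2 stood at 860.3 and 985 CPM (log2 change -0.50, SE 0.11; edgeR adjusted p = 0.00821) with the other 4 siRNAs between 1030.2 and 1505. All 3 calls were lost without the Nature library of clone 12 (adjusted p = 0.369 for Stard4, 0.157 for Abca1 and 0.165 for Scd2). The log2 change was then -0.65 for Stard4, -1.76 for Abca1 and -0.48 for Scd2, and the calls of Abca1 and Scd2 were also lost without the Rn45s libraries (0.0659 and 0.0562).

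Against SCR siRNA, Nature siRNA gave 9 calls among the 31 genes where 8.56% of all genes were called: Fdps was higher, and Hmgcs1, Idi1, Sqle, Nsdhl, Hsd17b7, Srebf2, Stard4 and Abca1 were lower. Srebf2 stood at 156 and 148 CPM with SCR, above both Nature libraries, and was 1.94-fold lower with Nature siRNA (log2 change -0.96, SE 0.14; edgeR adjusted p = 0.000194). The count was 3 without the Nature library of clone 12. Srebf2 and Nsdhl kept their calls without any single library, while Idi1 lost its call without any 1 of the 4 libraries (adjusted p 0.0707 to 0.219) and Hmgcs1 and Hsd17b7 without the Nature library of clone 12 (0.0605 and 0.0967). Stard4 and Abca1 lost theirs without that library (0.479 and 0.241) and also when SCR of clone 12 was left out (adjusted p = 0.335 and 0.213) and Sqle without the SCR (0.0635) or Nature (0.0674) library of clone 14.

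**Figure D3:**
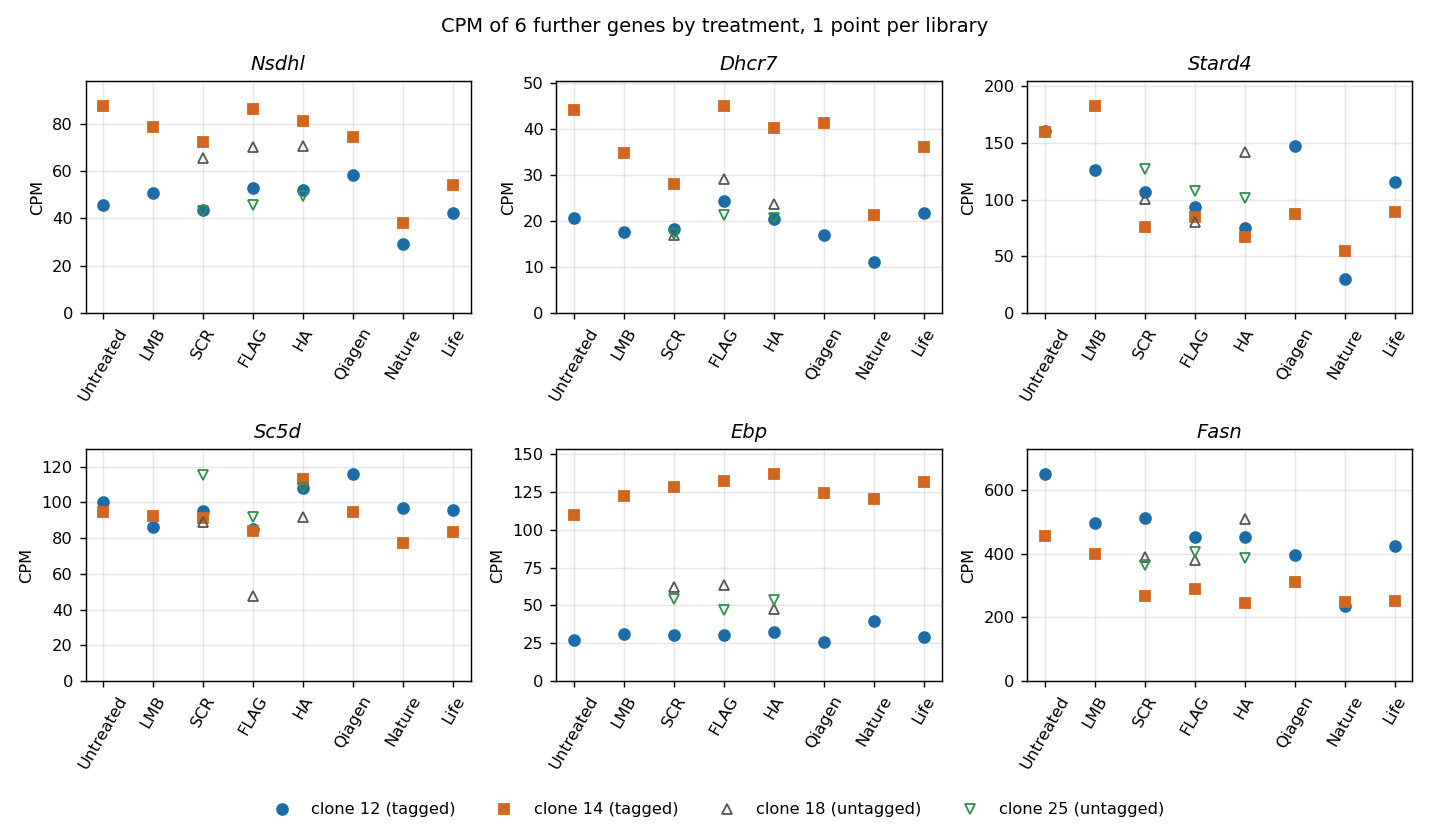
Each panel plots the CPM of 1 gene (vertical axis, from 0) by treatment, with 1 point per library and the clone symbols given in the legend. Nsdhl and Dhcr7 are lowest with Nature siRNA in each tagged clone, Stard4 is highest in untreated or LMB cells, Sc5d is lower with FLAG than with HA siRNA in all 4 clones, Ebp separates the tagged clones, and Fasn is highest in the untreated library of each. The mCherry libraries are not drawn.

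Qiagen siRNA stood out for Idi1, which isomerises isopentenyl diphosphate. Its level of 179 and 127 CPM compares with 387 and 313 with SCR and 206 to 453 with the other 4 targeting siRNAs. Both Qiagen libraries lie below every other library of the tagged clones. Idi1 was 2.30-fold lower than with SCR (log2 change -1.20, SE 0.14; edgeR adjusted p = 2.70e-05) and 2.18-fold lower than with the other 4 siRNAs (log2 change -1.13, SE 0.12; edgeR adjusted p = 6.74e-06), and both calls were kept without any single library. Against SCR, 2 of the 31 genes were called, where 5.33% of all genes were: Idi1 and Fdps. Against the other 4 siRNAs 5 were called, where 13.7% of all genes were: Idi1, Fdft1 (-0.41) and Cyp51 (-0.46) lower, Hsd17b7 (0.43) and Abca1 (1.08) higher. The last 4 were lost without the Qiagen library of clone 12 (adjusted p 0.134 to 0.95).

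With Life siRNA 2 of the 31 genes were called against SCR, both higher, where 8.29% of all genes were called in either direction: Fdps, and Insig1, which retains the SCAP and SREBP complex in the endoplasmic reticulum. Insig1 stood at 153 and 163 CPM against 118 and 107 with SCR (log2 change 0.50, SE 0.15; edgeR adjusted p = 0.0433), a call lost without any 1 of these 4 libraries (adjusted p 0.0584 to 0.305). Against the other 4 siRNAs 3 genes were higher, where 14.2% of all genes were called in either direction: Hsd17b7 (0.43), Srebf1 (0.40) and Abca1 (1.45), and none of these 3 was called without the Life library of clone 12 (adjusted p = 0.227, 0.0731 and 0.196). The 3 cyclin D1 siRNAs pooled gave 3 calls against SCR, where 5.4% of all genes were called: Fdps higher (0.53), Idi1 (-0.65) and Srebf2 (-0.40) lower. All 3 calls were lost with clone 12's SCR library left out (adjusted p = 0.251, 0.0616 and 0.563).

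The FLAG and HA siRNAs could be compared directly over the tagged clones, the untagged clones and the mCherry lines of replicate 2, with no control library. Of the 31 genes 7 were called, where 8.53% of all genes were: 2 higher with HA siRNA and 5 lower. Sc5d, the lathosterol desaturase, was higher with HA (log2 change 0.63, SE 0.09; edgeR adjusted p = 9.78e-05). It stood at 85.0 and 84.2 CPM with FLAG and 108 and 113 with HA siRNA in clones 12 and 14, and at 47.8 and 92.0 with FLAG and 91.9 and 108 with HA in clones 18 and 25. In the mCherry line it stood at 45.4 CPM with FLAG and 86.3 with HA, and in the FLAG-mCherry-HA line at 55.4 and 104. HA exceeds FLAG in all 6 pairs, and the gap is widest in clone 18 and the lines made from it.

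Insig1 was higher with HA as well (log2 change 0.42, SE 0.08; edgeR adjusted p = 0.00324), at 133 and 131 CPM with FLAG and 184 and 157 with HA in clones 12 and 14, and at 188 and 83.2 against 228 and 119 in clones 18 and 25. Scap, the escort of SREBPs, was lower with HA (log2 change -0.38, SE 0.07; edgeR adjusted p = 0.00101): 44.6 and 41.7 CPM against 39.7 and 31.4 in clones 12 and 14, and 48.4 and 60.8 against 36.5 and 48.4 in clones 18 and 25. In each of these 4 clones Insig1 is higher and Scap lower with HA. The calls of Sc5d, Insig1 and Scap were kept without any single library. Lss, the lanosterol synthase (-0.38), Srebf1 (-0.27), Abca1 (-0.93) and Scd2 (-0.36) were lower, with adjusted p of 0.00773 to 0.0353; of these Scd2 kept its call without any single library. That of Lss was lost without the FLAG library of clone 18 (0.0528), that of Srebf1 without any 1 of 8 libraries (0.0602 to 0.143) and that of Abca1 without any 1 of 7 (0.0514 to 0.112). Against SCR in tagged clones, FLAG siRNA gave 1 call, Fdps, where 2.17% of all genes were called, and HA siRNA gave 3, where 4.11% were: Fdps, Pmvk (0.70) and Insig1 (0.60). With only the libraries compared in the fit these counts were 11 and 17, and with DESeq2 2 and 6, again without the share of all genes called in those fits. Pmvk and Insig1 were lost without any 1 of their 4 libraries (0.077 to 0.335).

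Leptomycin B was compared with no treatment in clones 12 and 14. Of the 31 genes 4 were called, 2 higher and 2 lower, where 9.99% of all genes were called. Sqle, which commits squalene to sterols, fell from 211 and 185 CPM without treatment to 113 and 103 CPM, a 1.83-fold fall (log2 change -0.87, SE 0.14; edgeR adjusted p = 0.00057). Both leptomycin B libraries lie below every other library of the tagged clones, and the call was kept without any single library. Msmo1 fell from 246 and 285 to 184 and 198 CPM (log2 change -0.47, SE 0.14; edgeR adjusted p = 0.0457). Insig1 rose from 105 and 101 to 145 and 144 CPM (log2 change 0.49, SE 0.15; edgeR adjusted p = 0.0438), and Npc2, which hands cholesterol out of lysosomes, from 192 and 194 to 296 and 314 CPM (log2 change 0.66, SE 0.15; edgeR adjusted p = 0.0106). These groups do not overlap. The calls of Msmo1 and Insig1 were lost without any 1 of the 4 libraries (adjusted p 0.111 to 0.231), and that of Npc2 without 3 of them (0.0509 to 0.123). Mvd (-0.57, adjusted p = 0.058), Srebf1 (0.36, 0.0976) and Abca1 (0.85, 0.201) did not pass. The mean log2 CPM of the 19 enzymes with leptomycin B minus that without was -0.07 in clone 12 and -0.14 in clone 14.

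Transfected and untreated cells were compared to place the siRNA libraries against cells with no siRNA. Transfection differs between these arms in every pair, so siRNA and transfection cannot be told apart. The label of the clone 12 untreated library carries a date that siRNA labels do not. What the date marks is not stated, and if it marks another day, that cannot be told apart either. SCR siRNA gave 3 calls among the 31 genes, all lower, where 5.29% of all genes were called in either direction: Fdps, Lss (-0.54) and the stearoyl-CoA desaturase Scd1 (-0.48). Each was lost without any 1 of the 4 libraries (adjusted p 0.0746 to 0.349). The 5 targeting siRNAs together gave 11 calls, 2 higher and 9 lower. This count is near the 30.5% of all genes that were called in either direction, and the share called lower is not given here. All 3 fatty acid enzymes fell. Fasn, the fatty acid synthase, stood at 652 and 456 CPM in untreated cells and at 236 to 453 in clone 12 and 245 to 313 in clone 14 with targeting siRNAs (log2 change -0.76, SE 0.14; edgeR adjusted p = 0.00114). Scd1 (-0.55, SE 0.10) and Scd2 (-0.52, SE 0.10) fell less, with Scd2 at 1446 and 2074 CPM in untreated cells. In each clone every library with a targeting siRNA lies below the untreated library for these 3 genes.

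Stard4 stood at 161 and 159.8 CPM untreated and at 107 and 75.9 with SCR, and fell with the targeting siRNAs (log2 change -1.01, SE 0.22; edgeR adjusted p = 0.00279). Abca1 fell as well (-1.10), but its values were -0.03 in clone 12 and -1.89 in clone 14. Insig1 (0.52) and Npc2 (0.48) were higher, Idi1 (-0.43), Lss (-0.60), Srebf2 (-0.39) and Scap (-0.31) lower. Against the untreated library of its clone, the mean log2 CPM of the 3 fatty acid enzymes differed by -0.33 and -0.67 with SCR in clones 12 and 14, and by -0.06 and -0.08 with leptomycin B. Without the untreated library of clone 12 the calls of Srebf2, Scap and Insig1 were lost (adjusted p = 0.109, 0.0826 and 0.0661), and without that of clone 14 the 11 calls became 1, Fasn, which kept its call without any single library.

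**Figure D4:**
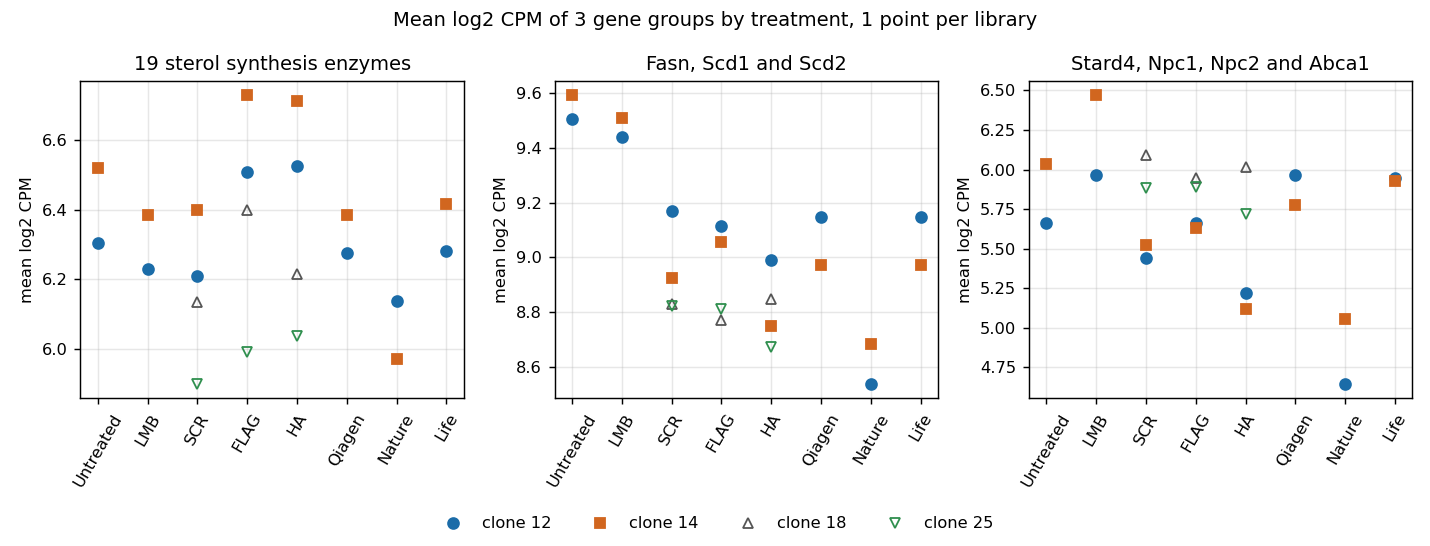
Each panel plots the mean log2 CPM of a gene group (vertical axis, not starting at 0) by treatment, with 1 point per library of clones 12, 14, 18 and 25. The 19 enzymes are highest with FLAG and HA siRNA and lowest with Nature siRNA in each tagged clone, whereas the fatty acid enzymes are highest in untreated and LMB cells.

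Clones were compared to describe the spread between lines. Between clones 14 and 12, over 8 matched treatments, 17 of the 31 genes were called, 9 higher and 8 lower, where 62.6% of all genes were called, so the share among the 31 is not above that of all genes. Ebp, the sterol isomerase, stood between 26.1 and 39.3 CPM in the 8 clone 12 libraries and between 109.9 and 137 in those of clone 14, a 4.13-fold difference (log2 change 2.05, SE 0.08; edgeR adjusted p = 3.75e-14). Tm7sf2 (1.60), Insig2 (1.26), Dhcr7 (0.94) and Nsdhl (0.59) were higher in clone 14 as well. Of the 8 mevalonate enzymes 5 were lower in clone 14 and 0 higher: Hmgcs1 (-0.73), Mvk (-0.41), Idi1 (-0.32), Fdps (-0.20) and Ggps1 (-0.27). The Ebp ranges do not overlap. Clone 14 is also the clone that lacks Col1a1, and these comparisons rest on 2 lines.

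Between clones 25 and 18, over 3 matched siRNAs, 14 were called, 2 higher and 12 lower, near the 47.6% of all genes that were called. Lower in clone 25 were Tm7sf2 (-1.10), Cyp51 (-0.91), Insig1 (-0.87), Sqle (-0.78), Npc1, the lysosomal cholesterol exporter (-0.71), and 7 others; Sc5d (0.52) and Scap (0.35) were higher. Sqle stood at 138 to 163 CPM in clone 25 and 238 to 312 CPM in clone 18, without overlap. Tagged and untagged clones with SCR siRNA, fitted alone with 13233 genes, gave 0 calls in edgeR and 1 in DESeq2 among the 31 genes, and in edgeR 0% over all genes (442 genes at an unadjusted p under 0.05); 3 members had such a p, Idi1 (0.72), Fdps (0.73) and Abca1 (-1.49). FLAG-mCherry-HA against mCherry gave 0 calls in edgeR and 0 in DESeq2 among the 31 genes, and in edgeR 0% over all genes (1390 genes at an unadjusted p under 0.05); Hmgcs1, Idi1, Npc2 and Scd1 had such a p, and the smallest adjusted p was 0.487, for Idi1 with a log2 change of 0.38.

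**Figure D5:**
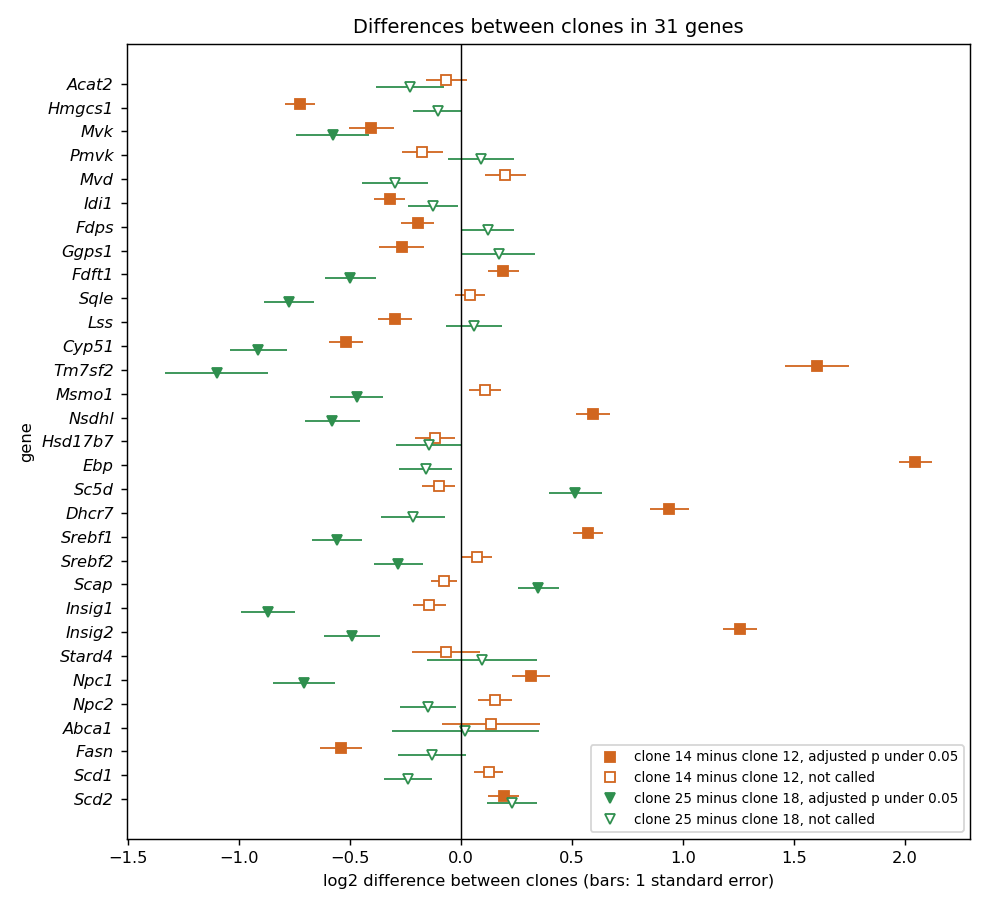
Each row is 1 of the 31 genes; the horizontal axis gives the log2 difference between clones, squares for clone 14 minus clone 12 and triangles for clone 25 minus clone 18, with bars of 1 standard error and filled symbols for an edgeR adjusted p under 0.05. Ebp, Tm7sf2, Insig2 and Dhcr7 lie farthest to the right for clone 14, and Tm7sf2, Cyp51 and Insig1 farthest to the left for clone 25.

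Other genes of these pathways were read from 4 lists: 19 of 20 tested for fatty acid and lipid synthesis, 14 of 14 for SREBP processing, 18 of 18 for sterol uptake, transport and storage, and 14 of 15 for isoprenoid branches. With cyclin D1 against tag siRNAs, the calls were 1 higher and 0 lower, 1 and 2, 0 and 1, and 1 and 1 in these lists, where 6.99% of all genes were called. Acly, which makes cytosolic acetyl-CoA, was higher (log2 change 0.61, SE 0.08; edgeR adjusted p = 0.000121), as was Dhdds, a dolichol synthase subunit (0.50). The same tag siRNA libraries enter the comparison with SCR, where both were lower in tagged clones (Acly -0.80, Dhdds -0.80); both were also lower with tag siRNAs in untagged clones (Acly -0.85, Dhdds -0.78). Fnta, the shared subunit of farnesyl and geranylgeranyl transferases, rose with tag siRNAs in tagged (0.83) and untagged clones (0.55). With leptomycin B, Rxra (-0.74) and the ubiquitin ligase gene Rnf139 (-0.53) fell and Nr1h2, which encodes the liver X receptor beta, rose (0.78). With Qiagen siRNA against SCR, the SREBP processing genes Sec23a (-1.08), Erlin1 (-0.69) and Syvn1 (-0.61) were lower.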

How the data were processed

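Poly(A)-selected stranded libraries of 28 cell samples were read as single 100 bp reads, per the labels' protocols. The deposited table holds raw read counts per gene for every library, made by the authors, per the submitters' processing notes, with HTSeq 0.6.1p1, TopHat2 2.0.13, Bowtie2 2.2.3, CASAVA 1.8.2 and FastQC among the tools named and mm10 as the build. No source used here states the strand setting. The 31 members and the other gene lists were chosen with earlier results of these data known. All members are named, and from each further list up to 4 called genes with the smallest p in a comparison.

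Counts were fitted in edgeR 4.0.16 (R 4.3.3) with TMM scaling, its filter by group and a robust quasi-likelihood test over all 28 libraries (17 coefficients, 11 residual degrees of freedom), with the clone, or the matched mCherry pair, as block. Tagged and untagged clones with SCR siRNA were fitted on those 4 libraries alone. A gene was called at a Benjamini-Hochberg adjusted p under 0.05 over all 15099 genes tested (13233 in the 4-library fit). The standard error (SE) is the size of the log2 change over the root of its F value. CPM are counts divided by the TMM-scaled library size, and mean log2 CPM uses a prior count of 2. Rows without a gene ID numbered 22. A called gene of the SREBP processing list is not reported here.

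Same-clone libraries deviated together from their treatment means. The lowest correlation was 0.834 over 28 pairs in clone 12, 0.862 over 3 pairs in clone 18 and 0.251 over 3 mCherry pairs. Each treatment mean of the tagged or untagged clones rests on 2 libraries, 1 per clone. Deviations in the second clone are then those of the first with the sign reversed, so its pairs add no separate check. The clone number in the labels supplies the pairing. Tested on simulated data for cyclin D1 against tag siRNAs (14819 genes), the fit recovered 86 of 100 genes changed by 1 on the log2 scale and 100 of 100 changed by 2. For leptomycin B against untreated these counts were 76 and 97, and for Nature against the other 4 siRNAs 85 and 100. False calls numbered 10 of 196, 9 of 182 and 9 of 194 calls in the same order. Changes smaller than 1 were not simulated. Alternatives were relative log expression (RLE) scaling, no filter, a filter of 1 CPM in at least 14 of the 28 libraries, a non-robust fit, no block, only the libraries compared, DESeq2 1.42.0, leaving out the libraries with over 2% Rn45s, and leaving out each library in turn.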

Additional observations from a re-analysis of the deposited data

How the results depend on the processing

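Values are numbers of the 31 genes called. The share of all genes called in each alternative run is not given here. No log2 fold change of the 113 called gene and comparison pairs reversed in any alternative run, 48 pairs kept their call without any single library, and 65 lost it without at least 1. Leaving out each library in turn gave 1 to 3 for leptomycin B, 0 to 1 for SCR against untreated, 1 for tag siRNAs against SCR, 0 to 4 for cyclin D1 siRNAs against SCR, 8 to 14 for cyclin D1 against tag siRNAs, 0 to 3 for tag siRNAs in untagged clones, 1 to 12 for targeting siRNAs against untreated, 5 to 11 for HA against FLAG, 15 to 19 for clone 14 against 12 and 11 to 14 for clone 25 against 18. Against SCR the ranges were 0 to 1 for FLAG, 1 to 2 for HA, 1 for Qiagen, 3 to 10 for Nature and 0 for Life; against the other 4 siRNAs they were 1 to 8 for Qiagen, 10 to 13 for Nature and 0 to 7 for Life. The lone library then left in an arm is assumed to vary like the other groups. With no replicate block the count was 0 for leptomycin B, SCR against untreated, cyclin D1 siRNAs against SCR, tag siRNAs in untagged clones, targeting siRNAs against untreated, FLAG, HA and Life against SCR and Life against the other 4, and 1 for the remaining siRNA comparisons with calls; it gives no value for the 2 clone comparisons. With only the libraries compared it was 8 for leptomycin B, 1 for SCR against untreated, 14 for tag siRNAs against SCR, 1 for cyclin D1 siRNAs against SCR, 0 for tag siRNAs in untagged clones, 4 for HA against FLAG, 11, 17, 1 and 7 for FLAG, HA, Nature and Life against SCR, and 2 and 1 for Qiagen and Life against the other 4. DESeq2 gave 6 for tag siRNAs against SCR, 3 in untagged clones, 2, 6 and 4 for FLAG, HA and Qiagen against SCR, 10 for Qiagen against the other 4 and 1 for tagged against untagged clones. Without the Rn45s libraries it was 5 for cyclin D1 against tag siRNAs, 1, 1 and 0 for HA, Qiagen and Life against SCR, and 1 for Life against the other 4. SCR against untreated gave 0 with RLE, 0 with no filter and 1 with the stricter filter. With no filter Qiagen and Life against SCR gave 1 each and Qiagen against the other 4 gave 3; the stricter filter gave 4 for Qiagen against SCR and 8 against the other 4. The causes were not tested. Counts not listed stayed within 1.5 times the reported one. RLE scaling moved the mean log2 CPM of the 31 genes by -0.037 to 0.053, depending on the library. With 2 clones per arm, small differences were not detectable.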

Other observations

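With the 5 targeting siRNAs against untreated cells, 3 of the 19 fatty acid and lipid synthesis genes tested outside the 31 were higher and 6 lower, where 30.5% of all genes were called. The desaturase Fads2 (log2 change -0.71, SE 0.13; edgeR adjusted p = 0.00138) and Acly (-0.58) were among those lower, while the malic enzyme Me1 was higher (0.61). With Nature siRNA against the other 4, 0 of these were higher and 2 lower, near the 9.93% of all genes called: the elongase Elovl6 (log2 change -0.92, SE 0.14; edgeR adjusted p = 0.000215) and Fads2 (-0.61). With HA against FLAG siRNA, 1 was higher and 4 lower, where 8.53% of all genes were called, among them Acly (log2 change -0.76, SE 0.07; edgeR adjusted p = 2.58e-06), and Mid1ip1, which helps acetyl-CoA carboxylase polymerise, was the one higher (0.50).

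With leptomycin B, 1 of the 18 genes of sterol uptake, transport and storage was higher and 2 lower, where 9.99% of all genes were called. Lipa, the lysosomal acid lipase that frees cholesterol from its esters, rose (log2 change 0.77, SE 0.21; edgeR adjusted p = 0.026), and the lipoprotein receptor Lrp8 (-0.83) and the oxysterol-binding protein Osbp (-0.44) fell.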
